A study of Mus musculus with 6 samples.

Results

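The genes described here encode proteins of the postsynaptic density, the protein mesh beneath the receptors of a synapse, and the adhesion molecules that join both sides of the synapse. They are 35 genes chosen by symbol for their function and matched to the Ensembl identifiers assigned to the transcripts of each library. Of these, 33 had a value in at least 1 library, among 15441 genes in all, and 32 had one in all 6 libraries, among 11750 genes. Dlg2, a scaffold protein, and Cacng8, an auxiliary subunit of AMPA-type glutamate receptors, had no value in any library.

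The study followed the cortex of male C57/BL6J mice, 6 to 8 weeks old, after photothrombosis, in which light shone on the brain closes cortical vessels in the presence of the injected dye Rose Bengal. RNA of the whole ipsilateral cortex was taken at 1, 3, 7, 14 and 28 days after the stroke, and from sham-operated mice at day 7 after their operation. Values listed without a day run in the order sham, day 1, 3, 7, 14 and 28, or from day 1 where they are ratios or differences. RNA of 3 mice was pooled into 1 library per group, which leaves every difference without a replicate check or a test. Sequencing was of poly(A) RNA, kept the strand and gave pairs of 150 bases, on average 33.6 M reads for a library, while the depth of any single library is unknown. All comparisons share the single sham library, so a deviation of that library enters every one of them.

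At an excitatory synapse, membrane-associated guanylate kinases hold receptors in place and bind Dlgap proteins, which in turn bind Shank and Homer proteins deeper in the density. The kinase CaMKII phosphorylates receptors and scaffolds when calcium enters the spine, and neurexins of the presynaptic side bind neuroligins of the postsynaptic side across the cleft. At inhibitory synapses, gephyrin takes the place of these scaffolds and clusters glycine and GABA receptors.

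Values are given in FPKM, which scales fragments to the length of the transcript and the size of the library. They were deposited per transcript start, transcript end and splicing event, and the value of a gene is the largest of its summed starts, its summed ends and any single event. With repeats dropped, the libraries listed 90575, 91177, 95381, 97289, 81985 and 92557 events, of which 22978, 22784, 24149, 24647, 20593 and 23261 were starts. Day 14 thus listed the fewest of both. Whether a start or form not listed at day 14 was absent from the tissue was not tested. In sham, 29 of the 32 members with a value in every library were above the median gene, and 11 were among the top 10% of genes. The median FPKM of these 32 members was 33.1 in sham and 26.2, 27.6, 25.6, 24.1 and 29.3 at days 1, 3, 7, 14 and 28, while that of all genes lay between 7.67 and 8.11. Sham held the highest value of 15 of the 32 members, against 12.9% of all genes listed in every library. Day 14 held the lowest value of 10 members and day 7 that of 8, against 21.3% and 11.96% of all genes.

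**Figure D1:**
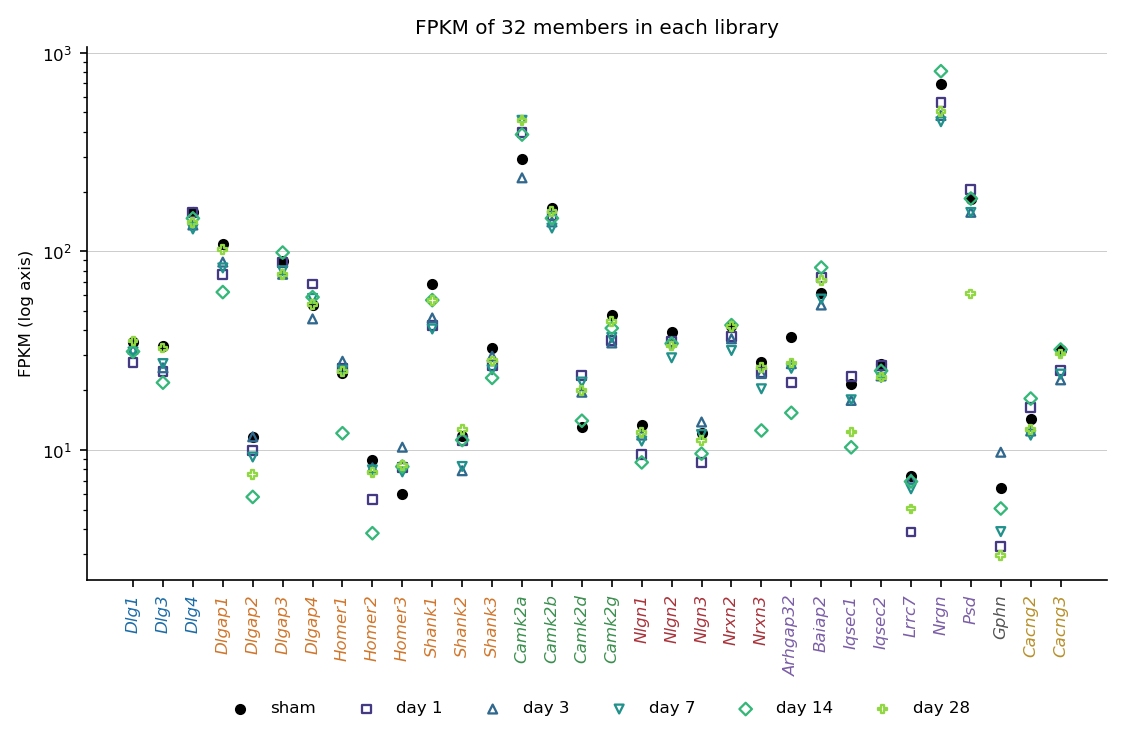
FPKM on a log axis of the 32 members with a value in every library, 1 symbol per library, with names coloured by role. The members spread from a few FPKM (Gphn, Lrrc7, Homer3) to several times 100 (Nrgn, Camk2a), and for most of them the 6 libraries lie close together compared with the distances between genes.

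Each library after stroke was compared with sham by log2((FPKM + 0.1)/(sham FPKM + 0.1)), for genes that reached 1 FPKM in either library. The median of the 32 members was -0.17, -0.21, -0.28, -0.16 and -0.13 at days 1, 3, 7, 14 and 28. The median of all genes compared was 0.01, 0.03, 0.03, 0.10 and 0.03 at these days. The members were thus lower than sham by a small amount at every day, and their median stayed negative when libraries were scaled to equal medians or upper quartiles. Below sham were 23, 27, 27, 21 and 25 of the 32 members at these days. Of all genes, 48.5%, 46.6%, 46.2%, 42.6% and 46.2% were below sham. Fewer neurons or synapses and less RNA per cell cannot be told apart in RNA of whole tissue.

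Few members differed from sham by a factor of 2 or more. None was 2-fold lower at day 1, 3 or 7, where 4.48%, 2.53% and 2.12% of all genes were. At day 14, 5 members were 2-fold lower (Arhgap32, Homer2, Nrxn3, Iqsec1 and Homer1), against 6.92% of all genes. At day 28, 2 members were (Psd and Gphn), against 2.79% of all genes. The day 14 and day 28 counts are 5 and 2 of 32 compared members, and they rest on 1 library each. No member was 2-fold higher at day 7, 14 or 28, where 8.53%, 8.97% and 3.68% of all genes were. At day 1 and day 3, where 5.11% and 8.54% of all genes were 2-fold higher, the single such member was Ddn (dendrin), which was not listed in sham. The events assigned to Ddn, 4.82 FPKM at day 1, 1.47 at day 3 and 0.520 at day 14, lie on the + strand of chromosome 15, whereas the annotated gene is on the - strand. They are therefore not a measure of dendrin transcripts, and Ddn is left out of the medians.

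**Figure D2:**
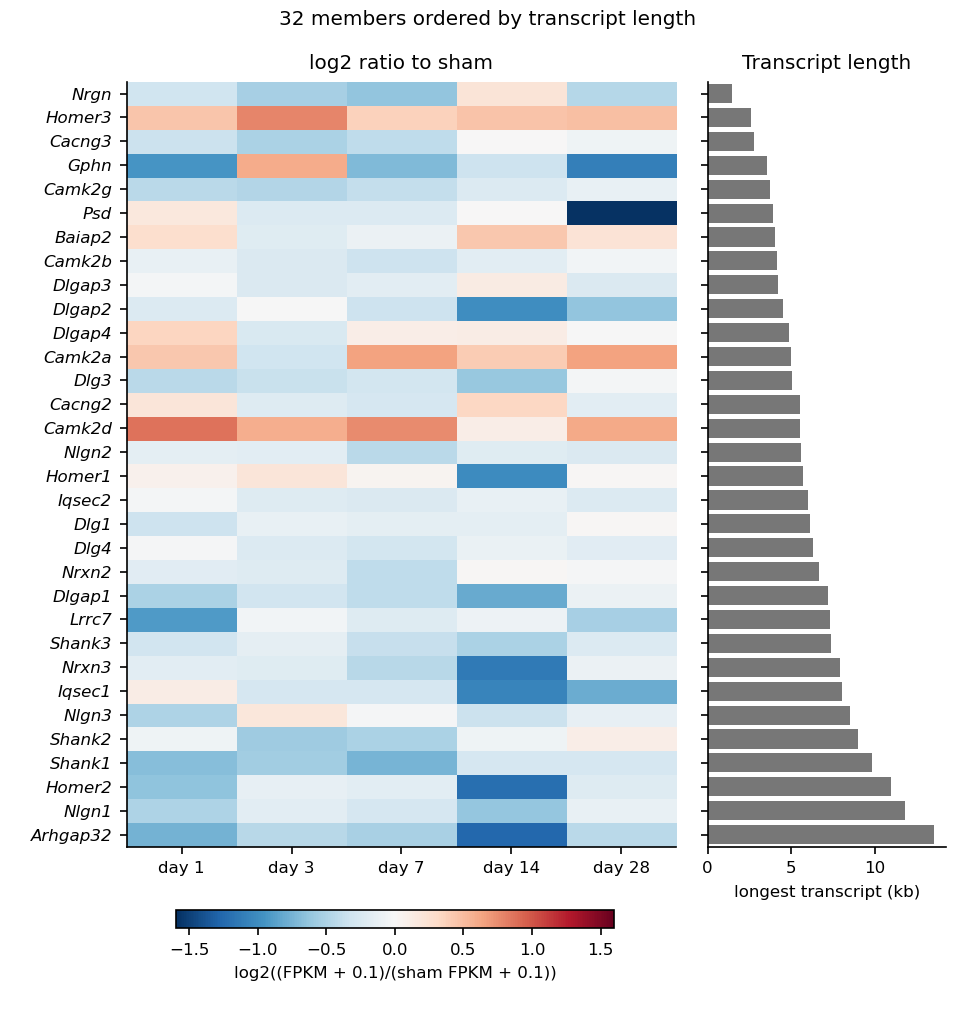
Log2 ratio to sham of 32 members at each day (colours, blue for lower than sham) beside the length of the longest annotated transcript of each gene in kilobases (bars), with the shortest gene at the top. The day 14 column turns from pale or red at the top to blue towards the bottom, with Arhgap32 the lowest, while the day 3 and day 7 columns are pale blue along most of their length.

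The members are long transcripts. The median length of their longest annotated transcript was 5640.5 bases, against 3396 bases for all genes listed in every library, with Nrgn the shortest at 1453 bases and Arhgap32 the longest at 13568. Across the 32 members, Spearman's rho between length and log2 ratio was -0.364, 0.000733, -0.113, -0.592 and -0.101 at days 1, 3, 7, 14 and 28. Across all genes the same rho was -0.255, 0.00433, -0.0876, -0.412 and -0.0354. Genes are not independent replicates, so these values describe the libraries only. In both sets the relation was largest at day 14, next at day 1, and close to 0 at day 3. The 16 longer members had a median of -0.42 at day 14, with 15 of them below sham, and the 16 shorter ones a median of 0.06, with 6 below. At day 1 the longer members had a median of -0.32 and the shorter ones one of -0.08. By contrast, both sets of 16 had a median of -0.28 at day 7.

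The trend over all genes was then subtracted, as the median ratio in 20 bins of transcript length. At day 14 this trend went from 0.44 in the bin of the shortest genes to -0.37 in that of the longest, and was -0.21 at the members' median length. At day 1 it went from 0.16 to -0.30. Corrected in this way, the median of the 32 members was -0.06, -0.26, -0.27, -0.01 and -0.12 at days 1, 3, 7, 14 and 28. Over the 32 members, the median at day 1 and day 14 was thus closer to 0 after the correction, whereas the shift from sham at days 3, 7 and 28 remained after the correction. Against day 28 in place of sham, the corrected median was -0.0797 at day 3 and -0.10 at day 7, so the size of the shift at these days depends on the reference library. Below the trend were 18, 27, 26, 16 and 25 of the 32 members. After correction no member was 2-fold lower at day 14, with Dlgap2 at -0.91, Arhgap32 at -0.89 and Homer2 at -0.84 the lowest. Psd and Gphn were still 2-fold lower at day 28. The shares of all genes given above are without this correction, so these corrected counts have no share of all genes beside them. The corrected median at day 14 depends on the value used for a gene and was 0.32 with summed starts of the same 32 members. With summed ends, which 20 of them had in both libraries, it was -0.19, and -0.12 before correction. Over these 20 members the usual value gave -0.10 after correction and -0.0920 before it, so the correction did not bring their median closer to 0. The study's methods state an RNA integrity number above 8 for all samples, and no value for each library was used here.

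**Figure D3:**
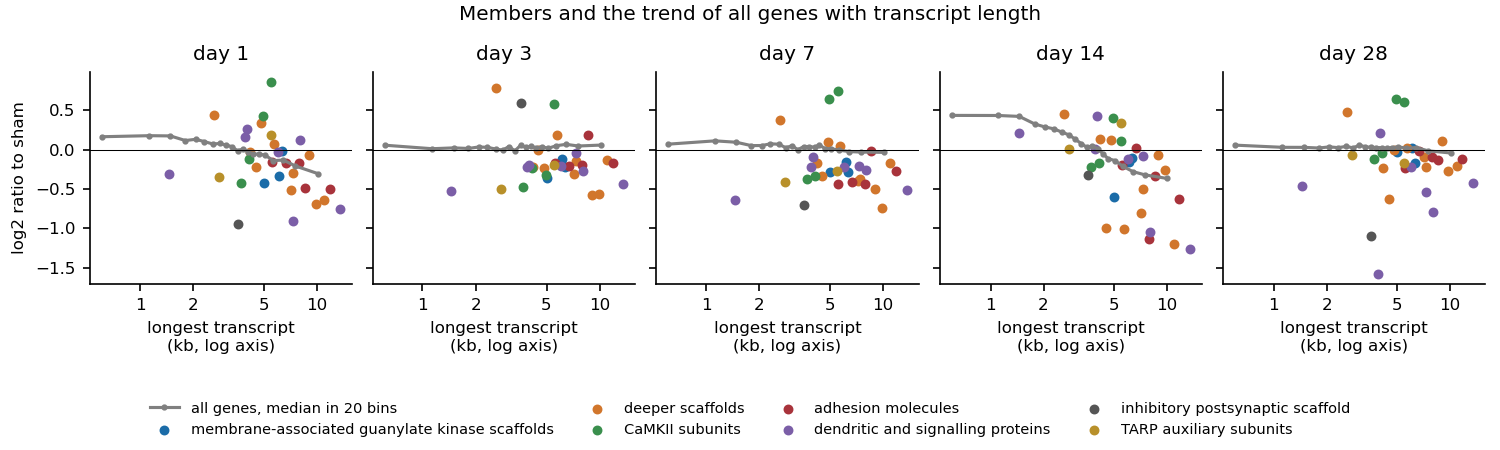
Log2 ratio to sham against the longest transcript (kilobases, log axis) for 32 members, coloured by role, with the median of all genes in 20 bins of length (grey line), 1 panel per day. The grey line slopes down at day 1 and day 14 and is nearly flat at days 3, 7 and 28, where the members lie mostly under it.

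**Figure D4:**
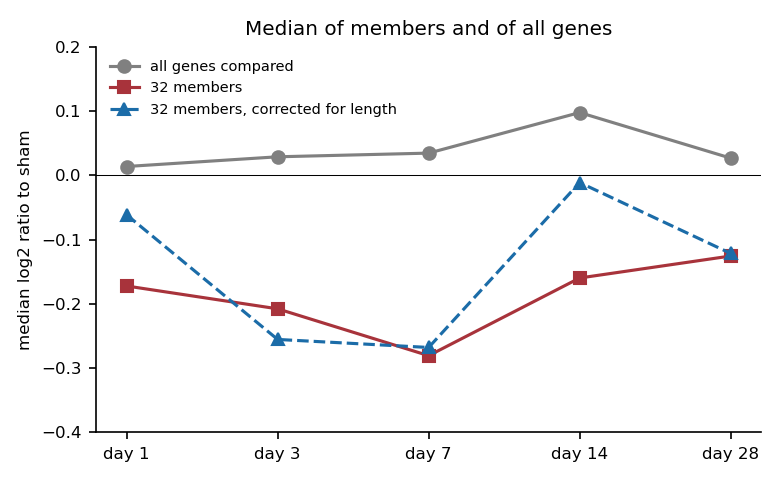
Median log2 ratio to sham of all genes compared (grey circles), of 32 members (red squares) and of the same members after correction for transcript length (blue triangles) at each day. Both member lines are near -0.3 at day 7, and at day 14 the corrected one is near 0.

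Markers of cell types were read in the same libraries, since they bear on any neuronal gene. Of 10 neuronal markers 9 were listed, led by Snap25, and Tubb3 was not listed in any library. Their summed level was 1772 FPKM in sham and 1592, 1365, 1375, 1385 and 1550.2 at days 1, 3, 7, 14 and 28. This sum was lower than sham in every library after stroke. Single markers were not all lower, with Rbfox3, Stmn2 and Elavl4 above sham at days 1 and 14, Map2 at day 3, Eno2 at days 14 and 28 and Stmn2 at day 28. Of the excitatory markers, Slc17a7 (a vesicular glutamate transporter) was the most abundant, with 303, 299.8, 248, 231, 164 and 251 FPKM, and Neurod2 and Neurod6 were in no library. The 4 inhibitory markers, all listed and led by Gad1, summed to 129, 149, 119.8, 131, 146 and 165 FPKM. This sum was above sham at every day except day 3. Single markers differed from it, with Gad1 below sham at day 7, Gad2 at day 14 and Dlx1 at day 1, and Gad2 above sham at day 3.

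Astrocyte and microglial sums, in contrast, were above sham at every day. The 6 astrocyte markers, all listed, summed to 657 FPKM in sham and 798, 1279, 1019.8, 1028 and 719.8 at days 1, 3, 7, 14 and 28. Gfap led them at days 1, 3 and 7 and Aldoc in the other libraries. Without Gfap the other 5 summed to 571, 468, 581, 597, 648 and 570.1 FPKM, so they were below sham at day 1 and level with it at day 28. Markers of microglia and macrophages summed to 152, 197, 469, 703, 582 and 181 FPKM, with 6 or 7 of 8 listed, led by C1qa or C1qb. P2ry12 was below sham at days 1, 7, 14 and 28 and Csf1r at days 1 and 28, against the direction of the sum. Tmem119 was listed at days 7 and 28 alone and Cx3cr1 at days 1 and 14 alone. Of 6 oligodendrocyte markers 5 were listed, led by Mbp, with sums of 1716, 2177, 1671, 1995, 1948 and 1548 FPKM, and Mobp in no library. Endothelial markers were low, with sums of 9.28, 11.2, 18.7, 10.3, 8.48 and 9.67 FPKM. Of these 5, between 3 and 5 were listed, Pecam1 led in all libraries but day 7 (Cdh5), Cldn5 was listed at day 1 alone and Flt1 was missing at day 14. Blood leukocyte markers summed to 0.909 FPKM in sham and 17.6, 4.58, 3.77, 13.7 and 1.20 at days 1, 3, 7, 14 and 28. Between 2 and 6 of these 6 were listed, led by S100a9 at days 1 and 14 and by Ptprc otherwise. Of the T-cell markers, Cd3e was listed at day 14 alone, and Cd3d had 0.0149, 0.479 and 0.268 FPKM at days 7, 14 and 28. The part of a change in cell composition in the members' values was not tested.

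Markers of tissue next to the cortex also differed between libraries. The hypothalamic markers Avp, Oxt, Pmch, Hcrt and Otp were all unlisted in sham, and summed to 54.3, 10.01, 33.3, 20.8 and 4.49 FPKM at days 1, 3, 7, 14 and 28. Pmch led at days 1 and 3 and Avp at days 7, 14 and 28, between 2 and 4 of the 5 were listed, Hcrt was in no library and Otp was listed at day 14 alone. The 4 choroid plexus markers, led by Ttr, summed to 286, 464, 183, 346, 297 and 561 FPKM. Of the striatal markers, Ppp1r1b was the most abundant, with 217, 246, 152, 134, 243 and 288 FPKM, and Drd1 was in no library. Others did not follow Ppp1r1b, with Drd2, Adora2a and Pde10a below sham at day 1 and Drd2, Rgs9 and Pde10a above it at day 7. The share of such tissue in each library therefore cannot be taken as equal, and its part in the members' values was not tested. Of 8 reference genes often used for scaling 7 were listed, and they summed to 1122, 1618, 865, 875, 1597 and 786 FPKM. They were led by Ppia in sham and at days 1 and 14 and by Actb otherwise, and Gapdh was not listed in any library.

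The membrane-associated guanylate kinase scaffolds were all 3 below sham at days 1, 3, 7 and 14, with medians of -0.33, -0.22, -0.29 and -0.15, of which that of day 14 became 0.10 after correction for length. At day 28, 2 of the 3 were below sham, with a median of -0.03, and all 3 were when libraries were scaled to equal medians or upper quartiles. Dlg4, the most abundant scaffold of excitatory synapses, had 159 FPKM in sham and 156, 136, 129.6, 147 and 140.4 at days 1, 3, 7, 14 and 28. It was lowest at day 7, with a log2 ratio of -0.29. Dlg3, which carries NMDA-type receptors in immature synapses, had 33.4, 24.8, 26.0, 27.3, 21.9 and 32.6 FPKM in the same order. Its lowest value was at day 14, with a ratio of -0.61, and at day 28 its ratio was -0.03. Dlg1, a scaffold in receptor trafficking, lay between 27.7 (day 1) and 35.4 FPKM (day 28), with 34.9 in sham.

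The transcripts of Dlg1 differed more than its sum. Its downstream start (chr16:31754350-31755016, + strand, mm10, a first exon annotated in GENCODE M21) had 0.0196 FPKM in sham and 5.18, 5.45, 5.80, 1.71 and 13.6 at days 1, 3, 7, 14 and 28. Its main start lies upstream and had 28.6 FPKM in sham and 18.1 at day 28. The form with a coding exon of 99 bases of Dlg1 made up 56.3% of both forms in sham and 34.8%, 34.1%, 41.1%, 50.9% and 37.7% at days 1, 3, 7, 14 and 28. The downstream start lies between this exon and the exon before it, so its transcripts are in neither form. Another coding exon, of 36 bases, was at 48.2%, 21.4%, 20.2%, 23.3%, 26.9% and 45.7%. Both were thus lower than sham in every library after stroke. The form with the exon of 36 bases had 5.18, 5.45, 5.80 and 13.6 FPKM at days 1, 3, 7 and 28. These equal the values of the downstream start, so start and exon are not separate observations at these days. In sham and at day 14 that form had 14.8 and 7.79 FPKM, more than the start.

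Inclusion here is the FPKM of the form with a cassette exon as a share of both forms, for exons with at least 5 FPKM of both forms together in every library. Transcripts that start or end between the flanking exons are in neither form, so a percentage of transcripts means one of both forms only. This minimum was chosen after the values were seen. There were 45 such exons in 21 members. They are counted once for each pair of flanking exons, so some exons of Camk2g count more than once. Inclusion differed from sham by 20 percentage points or more for 9, 7, 8, 10 and 4 of them at days 1, 3, 7, 14 and 28. The shares of all 3455 exons that did so were 11.6%, 10.9%, 9.99%, 13.6% and 9.96%. Of the differing exons of members, 7, 5, 5, 8 and 2 were less included than in sham at these days and 2, 2, 3, 2 and 2 were more included. Of all differing exons, 60.6%, 52.5%, 51.01%, 51.6% and 49.4% were less included. The exons of 1 gene share their transcripts and are not independent. The median absolute difference was 3.21, 4.95, 3.13, 5.46 and 3.58 percentage points for members and 2.54, 1.91, 1.82, 2.02 and 1.84 for all exons. Exons are named below by their length and were picked for display after their values were seen, and most of the 45 are not described. Among those not described further, a Camk2d exon of 89 bases had 24.5% in sham, 0.0247% at day 1 and 86.4% at day 14, a Nlgn3 exon of 60 bases 50.3% in sham and none at days 1 and 14, and a Dlg3 exon of 54 bases 55.9% in sham and 89.7% at day 7. Each exon whose sequence is printed below has a length that is a multiple of 3.

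The deeper scaffolds comprise 4 Dlgap, 3 Shank and 3 Homer genes. Of these 10 genes, 7 were below sham at day 1, 8 at day 3 and 7 at each later day, with medians of -0.15, -0.18, -0.25, -0.38 and -0.15. Corrected for length, their median was -0.05, -0.23, -0.27, -0.04 and -0.13 at days 1, 3, 7, 14 and 28. Dlgap1, a link between guanylate kinases and Shank, had 109 FPKM in sham and 76.8, 88.3, 82.6, 62.4 and 102 at days 1, 3, 7, 14 and 28. It was the highest of the 10 genes in sham, and its lowest ratio was -0.81, at day 14. Dlgap2, its less abundant paralog, had 11.7, 10.01, 11.7, 9.24, 5.82 and 7.53 FPKM, with a ratio of -0.99 at day 14. That ratio depends on the events used and was -4.30 with summed starts and -0.71 with the highest event listed in all libraries. Dlgap3 lay between 76.3 (day 28) and 98.6 FPKM (day 14), with 89.7 in sham. Dlgap4 lay between 45.8 (day 3) and 68.5 (day 1), with 54.1 in sham. Unlike their paralogs, Dlgap3 and Dlgap4 were thus above sham at day 14, though only slightly, with ratios of 0.14 and 0.12. Scaled to equal medians these ratios were 0.04 and 0.02, and corrected for length 0.16 and 0.25.

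Dlgap1 is also a case of a differing exon. Its coding exon of 30 bases (chr17:70718196-70718225, + strand, mm10, coding exon in GENCODE M21) was included in 76.5% of transcripts in sham and 70.7%, 68.7%, 65.1%, 32.9% and 68.3% at days 1, 3, 7, 14 and 28. It is shown because day 14 stands apart from the other libraries at this exon. The form without it was at 24.05 FPKM in sham and 41.8 at day 14, higher although the gene as a whole was lower. The sequence, 5′ to 3′ on the coding strand, reads
Dlgap1 exon: gtgtcataaaactgagttctgccgttgaag

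Shank proteins are the scaffolds between Dlgap and Homer, and all 3 genes were below sham at days 1, 3, 7 and 14, although Shank2 at days 1 and 14 and Shank1 at day 14 were above the length trend and Shank1 at day 3 was above sham by its highest event listed in all libraries. Shank1 had 68.3 FPKM in sham and 42.4, 46.3, 40.7, 56.9 and 56.5 at days 1, 3, 7, 14 and 28, with ratios of -0.69, -0.56, -0.75, -0.26 and -0.27. The value at day 14 is that of an end listed in no other library. Summed starts gave a ratio of -0.996 there, and the highest event listed in all libraries one of -0.44. The value in sham also depends on a start inside the gene. That start (chr7:44342135-44342180, + strand, mm10, matching an annotated transcript with a retained intron) had 25.4 FPKM in sham and 21.5 at day 28, but 1.52, 0.805, 0.0552 and 0.0690 at days 1, 3, 7 and 14. The main start had 37.9 FPKM in sham, 36.3, 38.3, 28.5 and 28.5 at these days, and 31.4 at day 28. With the highest event listed in all libraries the ratio was -0.06 at day 1, 0.17 at day 3 and -0.11 at day 7, so the lower level of Shank1 at these days was not seen, or hardly seen, in that event.

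Inclusion of a coding exon of 24 bases of Shank1 (chr7:44344298-44344321, + strand, mm10, coding exon in GENCODE M21) also separated sham from every other library. It was 59.9% in sham and 19.2%, 24.7%, 29.6%, 18.1% and 22.6% at days 1, 3, 7, 14 and 28. Since the 5 libraries after stroke lay within a narrow range, the difference rests on the sham library alone. The exon is shown for this reason.
Shank1 exon: tctccccctggaagaagaaaattg

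A second coding exon of Shank1, of 27 bases, was at 72.5% in sham and 88.2%, 75.8%, 60.9%, 33.5% and 68.3% at days 1, 3, 7, 14 and 28. Day 14 was the lowest there. Shank2 had 11.8, 11.2, 7.88, 8.28, 11.2 and 12.7 FPKM from sham to day 28. Its low values were at days 3 and 7, with ratios of -0.57 and -0.50. The upstream start of Shank2 (chr7:144175220-144175956) had 4.80, 6.03, 6.73, 5.48, 7.70 and 6.57 FPKM, and the downstream one (chr7:144283861-144285137) 6.37, 4.31, 1.15, 0.109, none and 6.17 FPKM. The downstream start of Shank2 was thus low or not listed from day 3 to day 14 and close to sham at day 28. Shank3, a gene whose loss causes a human autism syndrome, had 32.8, 26.6, 29.7, 25.4, 23.1 and 28.1 FPKM, below sham at every day.

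Homer proteins tie Shank to metabotropic glutamate receptors, and the 3 genes went different ways. Homer1 had 24.5 FPKM in sham and 25.7, 28.0, 25.2, 12.2 and 24.96 at days 1, 3, 7, 14 and 28. It was close to sham except at day 14, where the ratio was -1.01, or -0.79 corrected for length. Homer2 had 8.94, 5.67, 8.15, 7.96, 3.82 and 7.70 FPKM, with ratios of -0.65 at day 1 and -1.20 at day 14. Homer3, in contrast, had its lowest value in sham, with 5.99, 8.17, 10.3, 7.78, 8.27 and 8.41 FPKM and ratios between 0.37 and 0.78. Its transcript of 2608 bases is among the shortest of the members, while that of Homer2, with 10982 bases, is among the longest. Homer3 and Camk2d were the 2 members above sham at all 5 days.

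The short form of Homer1 induced by neuronal activity could not be read. Its annotated ends were listed in no library, and the single listed end of the gene matches another annotated transcript, with 0.251 FPKM in sham and 1.65, 1.55, 2.44, 0.338 and 0.202 at days 1, 3, 7, 14 and 28. A coding exon of 36 bases (chr13:93386345-93386380, + strand, mm10, coding exon in GENCODE M21) was at 72.2% in sham and 70.6%, 58.2%, 69.7%, 100% and 63.3% at days 1, 3, 7, 14 and 28. At day 14 the form without the exon was not listed, against 6.70 FPKM in sham, while the form with it was at 10.3 FPKM against 17.4. Day 14 was the library with the fewest listed events, so 100% there need not mean that the other form was absent. The exon is shown because day 14 is also the library in which the gene was lowest.
Homer1 exon: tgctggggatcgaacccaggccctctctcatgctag

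CaMKII is built from subunits of 4 genes, and these did not share a direction. Camk2a, the main forebrain subunit, had 293 FPKM in sham and 394, 234, 456, 387 and 458 at days 1, 3, 7, 14 and 28, with ratios of 0.43, -0.32, 0.64, 0.40 and 0.64. It was above sham at 4 of 5 days and below it at day 3. Camk2b, which also binds actin, had 165, 151, 141, 131, 147 and 159 FPKM, below sham at every day, with the lowest ratio of -0.33 at day 7. Camk2g was also below sham at every day, from 48.0 FPKM in sham to 34.6 at day 3. Camk2d, the subunit best known from heart, had 13.04 FPKM in sham and 23.8, 19.6, 22.0, 14.1 and 19.96 at days 1, 3, 7, 14 and 28, with ratios of 0.86, 0.58, 0.75, 0.11 and 0.61. With its highest event listed in all libraries the ratio was 0.38 at day 1 and 0.20 at day 3. The median of the 4 genes went from -0.28 at day 3 to 0.28 at day 28, and at day 14 it was -0.03 as deposited and 0.07 after correction for length.

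Transcripts of CaMKII genes are spliced in the linker between the kinase and the association domain. A coding exon of 42 bases of Camk2d (chr3:126808208-126808249) was included in 89.9% of transcripts in sham and 44.1%, 56.8%, 63.1%, 86.4% and 86.6% at days 1, 3, 7, 14 and 28. The form without it had 1.34 FPKM in sham and 6.98, 7.03 and 7.58 FPKM at days 1, 3 and 7, and 1.77 and 1.12 FPKM at days 14 and 28. A second start of Camk2d, at chr3:126805862-126805916, had 0.0992, 0.180, 5.01, 5.49, 1.73 and 0.988 FPKM. Another Camk2d start, at chr3:126802940-126802969, had 4.01 FPKM at day 1 and at most 0.0881 in the other libraries. For Camk2g, a coding exon of 33 bases was at 69.1%, 62.7%, 53.0%, 49.2%, 33.9% and 68.5% from sham to day 28 with 1 pair of flanking exons. With the other pair it was at 91.5%, 88.7%, 75.3%, 89.4%, 93.2% and 93.2%. The exon differed with the first pair of flanks and less so with the second. In Camk2a the start at chr18:60963554-60963963 had 13.5, 16.0 and 11.7 FPKM in sham and at days 3 and 7 and at most 0.182 FPKM at days 1, 14 and 28.

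Of the adhesion molecules, 5 of 5 were below sham at days 1, 7 and 28 and 4 of 5 at days 3 and 14. Their medians were -0.18, -0.17, -0.41, -0.34 and -0.12, and became -0.03, -0.23, -0.38, 0.000597 and -0.08 after correction for length. At day 14 the shift was thus no longer present after the correction, where 2 of 5 were below the trend, and at day 7 it was nearly as large. Scaling the libraries to equal medians or upper quartiles brought all 5 below sham at day 14. Nlgn1, the neuroligin of excitatory synapses, had 13.4 FPKM in sham and 9.49, 11.9, 11.1, 8.68 and 12.3 at days 1, 3, 7, 14 and 28. Its transcript of 11807 bases is the next longest after Arhgap32, and its ratio of -0.62 at day 14 became -0.26 after correction. The starts of Nlgn1 went the other way at day 14, with a ratio of 1.17 for their sum, which was below that of the ends in all other libraries. Nlgn2, the neuroligin of inhibitory synapses, had 39.4, 35.3, 34.9, 29.2, 34.4 and 33.4 FPKM. Day 7 was its lowest, with a ratio of -0.43. With summed starts of Nlgn2 the lowest was day 14, at -0.92, and with summed ends its ratio was above 0 at days 1 and 14, at 0.0260 and 0.0439. Nlgn3, found at both kinds of synapse, had 12.2, 8.64, 13.9, 11.99, 9.60 and 11.1 FPKM, highest at day 3.

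A coding exon of 51 bases of Nlgn2 (chr11:69830563-69830613, - strand, mm10, coding exon in GENCODE M21), which lies at the site of the protein known as site A, was included in 84.65% of transcripts in sham and 96.2%, 65.6%, 92.3%, 100% and 94.4% at days 1, 3, 7, 14 and 28. The form without it was at 14.98 FPKM at day 3, against 6.05 in sham, and was not listed at day 14. None of these values was 20 points from sham. The exon is shown as the neuroligin exon with the most FPKM behind it.
Nlgn2 exon: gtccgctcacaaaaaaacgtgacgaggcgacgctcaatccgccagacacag

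Neurexins are read from an upstream start into long alpha forms and from a start inside the gene into short beta forms. Nrxn2 had 42.1 FPKM in sham and 37.2, 36.3, 31.7, 42.5 and 41.7 at days 1, 3, 7, 14 and 28. Its most upstream start (chr19:6418731-6418972) had 12.1, 1.60004, 12.8, 6.29, 2.36 and 12.1 FPKM, and the most downstream one (chr19:6497671-6498531) 29.6, 23.99, 22.7, 25.1, 40.1 and 28.2. Another upstream start (chr19:6427937-6428778) had 11.3 FPKM at day 1 and at most 0.119 in the other libraries. Upstream transcripts of Nrxn2 were thus low at day 14 while the downstream one was at its highest.

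Nrxn3 (ENSMUSG00000066392) had 27.7 FPKM in sham and 24.7, 24.3, 20.4, 12.6 and 26.1 at days 1, 3, 7, 14 and 28, with a ratio of -1.14 at day 14, or -0.81 after correction for length. Of its starts, the one at chr12:88794504-88795893 had 9.81 FPKM in sham and 0.156, 9.99, 0.0904, 11.9 and 13.3 at days 1, 3, 7, 14 and 28. The start at chr12:89193106-89193207 had 10.6, 14.5, 7.63 and 12.6 FPKM in sham and at days 1, 3 and 7, was not listed at day 14, and had 2.74 at day 28. The most downstream start, at chr12:89812483-89813640, had 2.99, 6.70, 4.30, 5.10, 0.0345 and 7.71 FPKM. Nearly all of Nrxn3 at day 14, 94.6% of summed starts, thus came from the first of these, which gave 35.4% in sham and 0.631% at day 1. The lower level at day 14 lay in the other starts. The highest event listed in all libraries gave a ratio of -0.72 at day 14, and ratios above 0 at days 3 and 28.

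The RefSeq promoters (GRCm38.p6, 300 bases around a start) held 46 entries for 27 of the 35 members. Those of Nrxn3 at the first and last of these starts are shown, because the deposited starts match the RefSeq ones to the base and the libraries differ in their use. A further Nrxn3 start, at chr12:88722876-88723186, lies upstream of both, with 3.44 FPKM in sham. In the first window the bases just before the start are mostly c and t and end in ag, as at the end of an intron. Whether transcription begins at this start, and so whether the window is a promoter, was not tested. The windows shown lie at chr12:88794254-88794553 and chr12:89812233-89812532 on the + strand, and capitals mark CG pairs.
Nrxn3 upstream promoter: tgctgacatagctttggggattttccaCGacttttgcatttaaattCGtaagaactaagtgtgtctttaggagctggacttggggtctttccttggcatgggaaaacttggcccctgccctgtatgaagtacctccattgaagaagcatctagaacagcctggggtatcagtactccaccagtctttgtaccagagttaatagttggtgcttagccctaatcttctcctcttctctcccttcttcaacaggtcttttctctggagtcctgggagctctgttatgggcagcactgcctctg
Nrxn3 downstream promoter: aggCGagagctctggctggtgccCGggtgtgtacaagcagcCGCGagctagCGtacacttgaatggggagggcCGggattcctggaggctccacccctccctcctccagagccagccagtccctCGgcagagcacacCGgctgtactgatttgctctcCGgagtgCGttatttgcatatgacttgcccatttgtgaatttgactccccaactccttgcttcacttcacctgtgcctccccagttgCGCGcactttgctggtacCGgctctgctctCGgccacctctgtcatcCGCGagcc
The upstream window held 2 CG pairs and 47.3% G or C, and the downstream one 16 CG pairs and 60.7%, against a median of 7 CG pairs over all 32851 promoters. Of the motifs searched on both strands, CCGCCC was in 43.5% of the members' promoters and 35.7% of all promoters, TATAAA in 8.70% and 13.6%, CCAAT in 28.3% and 37.4%, and TGACGTCA in none and 1.79%. Neither of the Nrxn3 windows shown held any of these letters in this order. Another Nrxn3 window, at chr12:88953140-88953439 and not shown, held 1 match to CCGCCC. Such matches are a description of the sequence alone.

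Nrxn3 holds a coding exon of 90 bases known as splice site 4, which sets the partners that a neurexin binds (chr12:90199147-90199236, + strand, mm10, coding exon in GENCODE M21). It was included in 85.1% of transcripts in sham and 83.98%, 94.5%, 93.7%, 99.9% and 91.8% at days 1, 3, 7, 14 and 28. The form without it had 3.57 FPKM in sham and 0.00698 at day 14, so nearly all FPKM of both forms at that day was of the form with the exon. The exon is shown because of that. None of these inclusion values was 20 points from sham, and day 14 was the library with the fewest listed events. The values describe Nrxn3 and do not stand for other neurexins.
Nrxn3 exon: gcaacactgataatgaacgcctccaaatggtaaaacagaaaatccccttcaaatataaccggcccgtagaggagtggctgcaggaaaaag

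**Figure D5:**
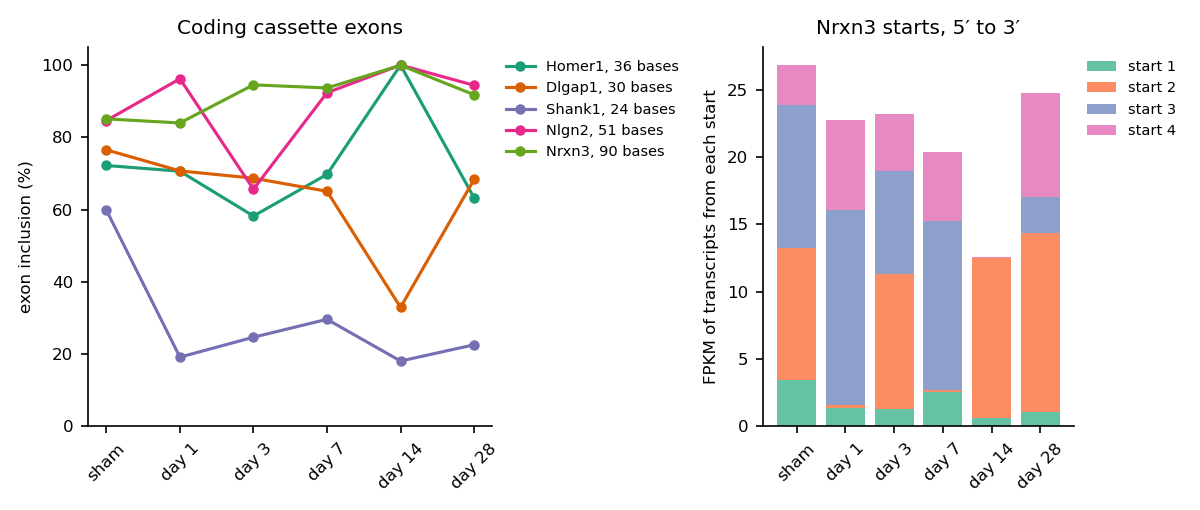
Left, inclusion in percent of 5 coding exons in each library (lines join libraries in time order), with Shank1 near 60 in sham and between 18 and 30 in the libraries after stroke, and Dlgap1 lowest at day 14. Right, FPKM of Nrxn3 transcripts from 4 starts, numbered from 5′ to 3′, as stacked bars; at day 14 nearly the whole bar is start 2.

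Among 7 dendritic and signalling proteins with a value in every library, 4 were below sham at day 1, 7 at days 3 and 7, 4 at day 14 and 6 at day 28, with medians of -0.03, -0.22, -0.23, -0.08 and -0.46, of which that of day 1 became 0.11 after correction for length. Nrgn, neurogranin, which holds calmodulin in the spine, was the most abundant member in every library but day 7, where Camk2a was higher, with 698 FPKM in sham and 561, 483, 449, 806 and 506 at days 1, 3, 7, 14 and 28. It is the shortest member, and its ratio at day 14 was 0.21, or -0.21 after correction for length. Arhgap32, a protein of the spine that switches off small GTPases and the longest member, had 37.04, 21.9, 27.2, 25.8, 15.4 and 27.4 FPKM. Its ratio of -1.26 at day 14 was the lowest of any member at that day, and its main start (chr9:32224249-32224587) had 34.1 FPKM in sham and 0.736 at day 14, against 15.4 at its end. The sum over its starts was therefore far lower at day 14 than the sum over its ends.

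Psd, an exchange factor for a small GTPase of the ARF family, had 183 FPKM in sham, 205 at day 1, 157 at days 3 and 7, 184 at day 14 and 61.1 at day 28. The ratio of -1.58 at day 28 was the lowest of all member ratios. The main start of Psd (chr19:46317654-46318133, - strand) had 180.2 FPKM in sham and was not listed at day 28, while the end was listed in all libraries. Iqsec1, another ARF exchange factor, had 21.5, 23.5, 17.8, 17.9, 10.3 and 12.3 FPKM, with ratios of -1.05 at day 14 and -0.80 at day 28. Its ratio at day 1 was 0.12, but -0.46 with summed ends and -0.37 with the highest event listed in all libraries, and at day 7 it was -0.26, or -1.18 with summed ends. Its 3 main starts took turns as the most used. Iqsec2 stayed between 23.2 (day 7) and 27.2 FPKM (sham), the narrowest range of any member, with a highest value 1.17 times the lowest. Lrrc7, densin, which binds CaMKII, had 7.37, 3.87, 7.16, 6.39, 6.95 and 5.06 FPKM, with its lowest ratio of -0.91 at day 1. With summed starts the ratio of Lrrc7 was -1.44 at day 1 and -3.48 at day 14, so its lowest day depends on the events used. Baiap2, which shapes actin under the spine membrane, had 61.5, 73.8, 53.7, 57.6, 83.0 and 71.5 FPKM. It was above sham at days 1, 14 and 28 and below at days 3 and 7.

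Gphn, gephyrin, the scaffold of inhibitory synapses, had 6.42 FPKM in sham and 3.28, 9.76, 3.89, 5.09 and 2.95 at days 1, 3, 7, 14 and 28. It had the lowest ratio of any member at day 1, -0.95, and was above sham at day 3, with 0.60. At day 28 its ratio was -1.10 by its end and -0.01 by its starts, so the low value at that day was not seen at the start of the gene. By its starts the ratio of Gphn was also 0.33 at day 14, against -0.33 by its end, and -0.56 at day 1. A start of Gphn that matches no annotated transcript was listed at days 1 and 3 alone.

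The auxiliary AMPA receptor subunits Cacng2 (stargazin) and Cacng3 guide these receptors to the synapse. Cacng2 had 14.4, 16.4, 12.5, 11.9, 18.2 and 12.8 FPKM, highest at day 14. Cacng3 had 32.03, 25.2, 22.6, 24.1, 32.1 and 30.5 FPKM, lowest at day 3 with a ratio of -0.50 and level with sham at day 14. At day 14 both were at or above sham, but Cacng3 was below it, at -0.10, when libraries were scaled to equal medians, and below the length trend, at -0.19.

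Over the members, 15 were below sham at all 5 days, against 13.7% of all genes compared at every day, namely Dlg3, Dlg4, Dlgap1, Dlgap2, Shank1, Shank3, Homer2, Camk2b, Camk2g, Nlgn1, Nlgn2, Nrxn3, Arhgap32, Iqsec2 and Lrrc7. As the 5 days share the sham library, such a count does not stand for 5 independent comparisons. After correction for length, 9 of the 15 were below the trend at all days, and Dlg4, Iqsec2, Lrrc7, Nlgn2, Nrxn3 and Shank1 were not. By the highest event listed in all libraries 11 were below sham at all days, and Dlgap2, Lrrc7, Nrxn3 and Shank1 were not. Sign changes under scaling to equal medians or upper quartiles touched values close to 0: Cacng3, Nrxn2 and Psd at day 14, Dlg1 and Homer1 at day 28 and Dlgap2 at day 3. Of the 32 members, 16 used more than 1 start at a share of 20% or more, a limit set after the values were seen, and in 6 of them (Dlgap2, Gphn, Iqsec1, Nrxn3, Psd and Shank2) the most used start differed between libraries. Over 11611 genes listed in all libraries with a start, 37.8% used more than 1 start by the same rule, and in 21.7% the most used start differed. A most used start that differs is thus not particular to the members.

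Other genes of the same pathways were read from 4 lists with 62 genes, of which 5 had no value (Pick1, Shisa7, Lrrtm2, Slitrk1 and Insyn2a). Together their median was -0.26, -0.17, -0.28, -0.35 and -0.12 at days 1, 3, 7, 14 and 28. It was negative at every day, as was that of the members. At day 1, 43 of 57 were below sham, against 48.5% of all genes, 4 were 2-fold lower, against 4.48%, and 1 was 2-fold higher, against 5.11%. At day 14 the counts were 39 of 56, 7 and 1, against 42.6%, 6.92% and 8.97% of all genes. After correction for length the medians of these genes were -0.15, -0.22, -0.29, -0.24 and -0.14 at days 1, 3, 7, 14 and 28. The values of single lists that follow are for days 1 and 14, with the length-corrected median in brackets. Excitatory scaffolds and signalling proteins had medians of -0.37 (-0.25) at day 1 and -0.48 (-0.31) at day 14, with 22 and 21 of 26 below sham. Synaptic adhesion genes had -0.21 (-0.0493) and -0.36 (-0.14), with 14 of 19 and 12 of 18 below. Inhibitory postsynaptic genes had -0.32 (-0.32) and -0.75 (-0.46), with 4 and 3 of 4 below. AMPA receptor auxiliary genes had 0.11 (0.0278) and 0.25 (-0.0508), with 3 of 8 below at both days. At day 28 their median was -0.0238, with 4 of 8 below and 1 of them 2-fold lower, so this list had no common direction.

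For each of days 1 and 14, 54 of these genes were ranked, those with at least 1 FPKM in both libraries. Among them, the lowest at day 1 were Slitrk2 (-1.58), Lhfpl4 (-1.05) and Lrrtm3 (-0.998), and the highest were Cacng5 (1.01), Tanc1 (0.63) and Ptprf (0.54). Lhfpl4, which anchors GABA receptors at inhibitory synapses, was also the lowest at day 14, with 1.13 FPKM against 11.9 in sham and a ratio of -3.29. Tanc2 (-1.86), a scaffold with a transcript of 11855 bases, and Slitrk2 (-1.37), an adhesion molecule, followed it. The highest at day 14 were Tanc1 (1.04), Cacng5 (0.98) and Prrt1 (0.93), with transcripts of 7873, 3705 and 1940 bases. Of the lowest, Lhfpl4 has a transcript of 4762 bases and Slitrk2 one of 7769. The paralogs Tanc1 and Tanc2 thus differed in direction at day 14, with Tanc1 at 6.07 FPKM against 2.91 and Tanc2 at 3.89 against 14.4.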

How the data were processed

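The authors deposited FPKM values for each library, per transcript start, transcript end and splicing event of the mm10 genome, with events at 0 left out. The submitters' processing notes name Trimmomatic 0.30, HISAT2 2.0.1 and HTSeq 0.6.1; the program that assembled transcripts and called events is not given in the sources used here. Read counts were not analysed here. Groups come from the labels of the 6 libraries, 1 per group, so no test was made. From the values the gene level, the log2 ratio to sham (pseudocount 0.1 FPKM, minimum 1 FPKM, genes not listed taken as 0 in counts), its relation with the longest GENCODE M21 transcript and its correction over 20 length bins were computed, with Python 3.11.15 and its packages scipy 1.17.1, numpy 2.4.6, matplotlib 3.10.9 and pandas 2.3.3, and the code was tested on simulated data. Genes named are all members, and of the other pathway lists (excitatory scaffolds and signalling, AMPA receptor auxiliary, synaptic adhesion, inhibitory postsynaptic) the 3 highest and 3 lowest ratios at days 1 and 14 among genes with at least 1 FPKM in both libraries. Marker lists cover neurons, excitatory and inhibitory neurons, astrocytes, microglia and macrophages, oligodendrocytes, endothelial cells, leukocytes, choroid plexus, hypothalamus, striatum and reference genes. Some markers of these lists and most exons are not reported here. Members and lists were chosen with earlier results of these data known. Alternatives changed the pseudocount, the minimum, the treatment of genes not listed, the threshold, the events used, the scaling, the length correction and the reference library. Exon sequences and coordinates follow GENCODE M21, and promoters RefSeq GRCm38.p6.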

Additional observations from a re-analysis of the deposited data

How the results depend on the processing

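Every library is 1 pool, the depth of each is unknown, and the sham library enters every comparison, so the values below show the effect of settings and not of sampling. No paired analysis was possible because each group has 1 library. Of 1993 member ratios under the alternatives 232 moved by 0.1 or more on the log2 scale. The member median was negative under all alternatives at every day. Among the alternatives, shares of all genes are given for the threshold of 1.5-fold alone, so the other counts below describe the members only. With a pseudocount of 1 FPKM, 3 members were 2-fold lower at day 14 and 1 at day 28. Without a minimum 1 was higher at day 14, and with a minimum of 5 FPKM, with genes listed in both libraries, or with events inside the annotated span, 0 were higher at day 1 and 0 at day 3. At a threshold of 1.5-fold, 5, 0, 3, 9 and 4 members were lower at days 1, 3, 7, 14 and 28, against 11.2%, 6.60%, 6.05%, 13.4% and 6.92% of all genes. At this threshold 2, 3, 2, 0 and 2 were higher at these days, against 11.5%, 15.9%, 15.3%, 18.5% and 8.93%. With summed starts, 2 were lower at day 1 and 1 at day 28, 2 were higher at day 3 and 1 at day 14, rho with length was -0.25 at day 7 and -0.239 at day 28, and the length-corrected median at day 14 was 0.32. With summed ends, which fewer members have, 2 were lower at day 7 and 3 at day 14, and 3, 2, 1 and 2 were higher at days 1, 3, 7 and 14. The median by ends at day 14 was -0.0318 when members with no end listed in sham were included. Over the 20 members with ends in both libraries it was -0.12, and -0.19 after correction. By ends, rho was -0.228 at day 1 and 0.00451 at day 28. Scaled to the upper quartile, 1 was lower at day 1. Corrected for length, 0 were lower at day 14 and the medians, with Ddn counted at day 1, were -0.0289 at day 1 and -0.0110 at day 14. The following were chosen after seeing the data. With the highest event listed in all 6 libraries, 0 were higher at day 1 and day 3. Against day 28 in place of sham, 2 were lower at day 14, and 2, 3, 1 and 1 were higher at days 1, 3, 7 and 14. The median against day 28 was -0.0310 at day 3 and -0.11 at day 7. The corrected one was 0.0284, -0.0797, -0.10 and 0.0949 at days 1, 3, 7 and 14, and so above 0 at day 1. With at least 10 FPKM of both forms, 36 exons of members were compared, of which 5 differed by 20 points at day 7 and 2 at day 28. The cause of these differences was not tested.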
